A study of Homo sapiens with 30 samples.

Results

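Prostate epithelial cells that expressed the transcription factor ERG, with and without constitutively active AKT, were compared here as separate lines across all expressed genes. RWPE1 is an immortalised line derived from normal human prostate epithelium, grown in keratinocyte serum-free medium with EGF and bovine pituitary extract. RWPE1-ERG cells carried a retroviral pQCXIH-ERG construct and the empty pBabe-Puro vector, and RWPE1-ERG+mAKT cells carried the same ERG construct and pBabe-Puro-Myr-AKT, which encodes an AKT held at the membrane by a myristoylation signal (mAKT). A vector line with pQCXIH and pBabe-Puro and neither gene, and an mAKT line with pQCXIH and pBabe-Puro-Myr-AKT, gave reference levels. All lines were kept in hygromycin and puromycin. They are retrovirally transduced, drug-selected populations with constitutive expression, so each condition is one line. PolyA RNA was sequenced in 3 libraries per line, and the deposited value for each gene is one FPKM (fragments mapped to the gene, scaled for its transcript length and for the size of the library) per line, pooled by the authors over the 3 libraries. No spread between libraries can be read from these values. A gene entered the comparison when its FPKM was at least 1 in RWPE1-ERG or RWPE1-ERG+mAKT, which held for 12444 of the 26255 genes listed. Ratios are ERG+mAKT over ERG throughout, without a pseudocount. No statistical test was possible, and every difference below compares 2 pooled values.

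AKT is a kinase activated downstream of PI3K. It phosphorylates FOXO transcription factors, the TSC complex and GSK3, and thereby acts on survival, protein synthesis and metabolism. ERG belongs to the ETS family, which bind DNA around a GGAA core, and is expressed in many prostate tumours through fusion to TMPRSS2. Stratified and basal epithelial cells carry keratins 5 and 14 under the control of p63. On squamous differentiation, such cells switch on keratins such as KRT13, KRT4 and KRT16, the small proline-rich (SPRR) proteins and involucrin of the cornified envelope, and a set of S100 proteins.

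The transgenes matched the labels. AKT1 stood at 58.7 FPKM in vector, 156 in mAKT, 64.2 in ERG and 281 in ERG+mAKT cells. AKT1 reads do not separate the transgene from the endogenous gene. ERG was at 0.264 in vector, 0.435 in mAKT, 358 in ERG and 328 in ERG+mAKT cells, a ratio of 1.09-fold between the last pair. The epithelial markers EPCAM (89.7 FPKM in ERG cells) and CDH1 (41.2 in ERG and 44.9 in ERG+mAKT cells) stayed within 2-fold between these lines. Markers of other cell types were mostly under an FPKM of 1 in both. This held for 14 of 16 endothelial markers, 11 of 14 fibroblast and smooth muscle markers, 10 of 12 blood cell markers and 9 of 10 neuroendocrine markers, with PTPRC at 0.00391 and 0.00382. Among the 8 markers above that level, only CD14 differed by 2-fold, at 0.505 and 1.09. KLK3, the prostate-specific antigen gene of luminal cells, was listed at 0 in all 4 lines. These are bulk values, so a smaller share of cells of one kind and less RNA per cell cannot be told apart.

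At the 2-fold limit, 393 genes (3.16%) were higher in ERG+mAKT cells and 477 genes (3.83%) were lower, while 11574 genes (93.0%) lay within 2-fold. The median log2 ratio was −0.05, with quartiles at −0.28 and 0.16. The numbers of higher and lower genes depend on how the lines are scaled to each other. The FPKM values of all listed genes, expressed or not, summed to 1246090 in ERG cells and 959573 in ERG+mAKT cells. Scaling both sums to one total moved every log2 ratio by 0.38 and gave 705 higher and 227 lower genes, so that higher genes made up 75.6% of those past the limit in place of 45.2%. A list median given below as between −0.38 and 0 is therefore above 0 under that scaling. A list of 20 reference genes had a median log2 ratio of −0.20 before and 0.18 after this scaling, and none of the 20 passed the limit in the deposited values. Other scalings moved the ratios less. Setting the median log2 ratio to 0 (a shift of 0.05) gave 423 higher and 430 lower genes. Scaling to one 75th percentile of expressed genes (a shift of 0.10) gave 450 and 387. Counting genes at 0 in one line, differences of at least 4-fold were listed for 168 higher genes (1.35%) and 106 lower genes (0.852%). Among genes at 5 FPKM or more with a finite ratio, 12 were more than 10-fold higher and 8 more than 10-fold lower. The genes nearest the limit were SLC2A9 (log2 ratio 1.001) inside and EPGN (0.998) outside it for higher genes, and SNORA8 (−1.00031) inside and HIST1H3B (−0.998) outside it for lower genes. The plot of FPKM in the 2 lines shows these groups.

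**Figure D1:**
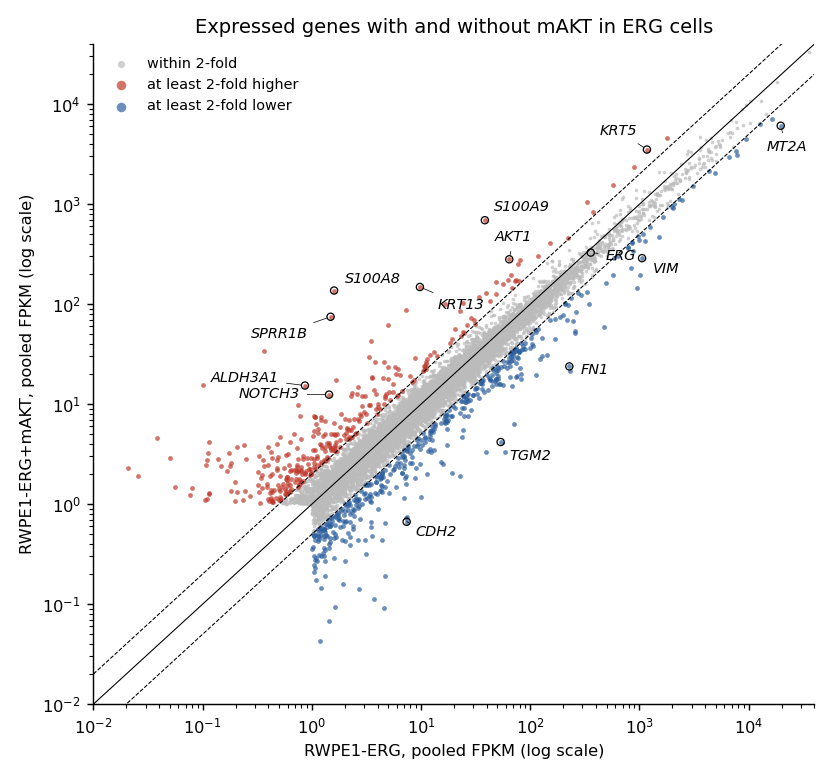
Pooled FPKM of each expressed gene in RWPE1-ERG (x axis) and RWPE1-ERG+mAKT cells (y axis), both on log scales. Each point is one gene above 0 in both lines, the solid line marks equality and the dashed lines mark 2-fold. S100A8, SPRR1B and S100A9 lie far above the diagonal, TGM2, FN1 and CDH2 far below it, and ERG lies on it.

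Low and short genes made up part of these counts. Of genes whose higher FPKM was from 1 to 2, 13.8% passed the limit in either direction, against 4.84% of those from 10 to 100 FPKM and 8.85% of those at 100 FPKM or more (31 higher and 71 lower genes). Small RNA genes, which are poorly measured in polyA libraries, gave 94 higher and 102 lower genes of 415. Clustered histone genes, whose main transcripts lack a polyA tail, gave 42 lower and 0 higher genes of 58. Without both classes, 299 of 11971 genes (2.5%) were higher and 333 (2.78%) lower, and the gene groups described next contain neither class. Leaving out these classes, here and below, was chosen after the data were seen.

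S100A8, SPRR1B and S100A9 had the largest ratios among genes at 5 FPKM or more in the higher line and 0.5 or more in the lower. S100A8, which encodes a subunit of the calcium-binding protein calprotectin, was at 3.64 FPKM in vector, 13.9 in mAKT, 1.598 in ERG and 137 in ERG+mAKT cells. That is an 85.6-fold ratio, with ERG+mAKT above every other line. S100A9, the partner subunit, was at 33.0, 51.6, 38.4 and 691 in the same order, an 18.01-fold ratio. S100A7 was listed at 0 in ERG cells and at 2.43 in ERG+mAKT cells, and S100P was 3.51-fold higher, from 2.00 to 7.02. The other 10 of 14 expressed S100 genes stayed within 2-fold, and the list had a median log2 ratio of 0.23. Among them S100A2, the most abundant S100 transcript in ERG+mAKT cells, stood at 4523 and 4630.3 FPKM.

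Among the 15 genes with the largest ratios in each direction, leaving aside 4 small RNA genes without an annotated start, only S100A9 had an ERG ChIP-seq peak at its start in ERG+mAKT cells, so its promoter is shown. The peak spans chr1:153330160-153330380 (hg19), with a fold enrichment of 4.94 over input, a −log10 p-value of 6.53 and a −log10 q-value of 1.51, so that it did not pass a q-value of 0.01. The part before the transcription start, read from the plus strand on which S100A9 lies, is printed 5′ to 3′ with each ETS core (GGAA, or TTCC where the core is on the minus strand) in capitals.
S100A9 promoter, chr1:153330160-153330329: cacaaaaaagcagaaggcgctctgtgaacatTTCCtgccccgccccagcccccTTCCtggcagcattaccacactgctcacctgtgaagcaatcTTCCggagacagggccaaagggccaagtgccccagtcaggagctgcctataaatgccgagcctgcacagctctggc
The window holds 3 cores, all read as TTCC. At least 1 core was present in 83.6% of windows of the same length centred on the ERG peaks of these cells and in 77.0% of windows 5 kb away, so a core in such a window is common. This is a match of letters, not a mapped binding site.

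Cornified envelope genes formed the list with the largest median log2 ratio, 2.49 over 15 expressed members, against −0.05 over all expressed genes. Of these members, 9 were at least 2-fold higher and 0 at least 2-fold lower, and 16 further listed genes were under the FPKM limit in both lines. In mAKT over vector cells the list had a median of 2.65, with 8 members higher and 0 lower. Of the 2 lines compared, members such as SPRR1A, SPRR2A, SPRR2E, SPRR3 and IVL reached the FPKM limit only in ERG+mAKT cells. This fixed the direction of their difference. With an FPKM floor of 5 the list median in ERG+mAKT over ERG cells was 1.40, and with a pseudocount of 1 it was 1.51. Suprabasal and stress keratins were at 1.66 in both settings, so the top rank depends on the setting. SPRR1B was at 6.47 FPKM in vector, 45.9 in mAKT, 1.48 in ERG and 74.8 in ERG+mAKT cells, a 50.4-fold ratio. SPRR1A was at 1.000, 20.3, 0.367 and 33.9, a 92.2-fold ratio. Both were lowest in ERG cells and highest in ERG+mAKT cells. SPRR2A was at 0.0997 and 15.6 FPKM in ERG and ERG+mAKT cells, SPRR3 at 0.0254 and 1.92, and SPRR2E at 0 and 3.55. Reads of the SPRR2 genes may be shared between near-identical copies. Involucrin (IVL), the scaffold of the envelope, was 5.60-fold higher (0.791 and 4.43), and CSTA, a cysteine protease inhibitor of keratinocytes, was 2.63-fold higher (48.1 and 127). TGM1, the transglutaminase that crosslinks the envelope, was just short of the limit at 2.53 and 5.03. The late markers LOR and FLG remained near 0, with LOR listed at 0 in all 4 lines and FLG at 0.0393 in ERG+mAKT cells.

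A run of 10 of the higher genes was found with no other expressed gene between them. On chromosome 1, from 152881022 to 153433127 (hg19), IVL, SPRR1A, SPRR3, SPRR1B, SPRR2D, SPRR2A, SPRR2E, S100A9, S100A8 and S100A7 were all past the limit, and their smallest log2 ratio was 2.49. This stretch is part of the epidermal differentiation complex, a cluster of genes used in squamous epithelia. A second run lies in the type II keratin cluster on chromosome 12, from 52840435 to 53207900, where KRT6B, KRT6C, KRT6A, KRT5 and KRT4 were all higher.

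Suprabasal and stress keratins, which replace the basal keratins in differentiating or wounded stratified epithelium, had a median log2 ratio of 1.88, with 7 of 9 expressed members higher and 1 lower. Their median in mAKT over vector cells was 0.84, with 4 higher and 0 lower. KRT13 was at 4.10 FPKM in vector, 111 in mAKT, 9.76 in ERG and 148 in ERG+mAKT cells, a 15.2-fold ratio. KRT16 was at 28.1, 50.5, 7.25 and 87.4, a 12.05-fold ratio. Both were high in the 2 lines with mAKT. KRT4 was 22.9-fold higher at low levels (0.107 and 2.45), and KRT6A was 3.17-fold higher at high levels (331 and 1049.8). KRT17 was also higher (1768 and 4542). KRT80 went the other way, at 32.8 and 12.6. KRT6A, KRT6B and KRT6C, and KRT16 and KRT17, are close copies whose reads may be split between them.

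Proteases and inhibitors of the outer epidermis accompanied these keratins. Of 16 expressed kallikreins, serpins and protease inhibitors, 9 were at least 2-fold higher and 1 lower, with a median log2 ratio of 1.54. Their median in mAKT over vector cells was 1.14, with 10 higher and 1 lower. SERPINB13 was at 0.741 and 9.87 FPKM in ERG and ERG+mAKT cells, KLK8 at 1.21 and 7.38 and KLK10 at 0.147 and 2.43. SLPI, a secreted inhibitor of neutrophil elastase, was at 48.6 and 165, and LCN2, an iron-siderophore carrier, at 2.27 and 11.98. The exception was CST6, a cystatin, which was 4.01-fold lower at 74.3 and 18.5. CST6 was at 9.51 in vector cells, so its level in ERG+mAKT cells stayed above that line.

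Further large ratios were seen outside these lists. AQP3, the glycerol and water channel of basal keratinocytes, was at 4.97 and 62.3 FPKM in ERG and ERG+mAKT cells, 12.5-fold higher. NOTCH3, a Notch receptor, was 8.66-fold higher (1.44 and 12.4), and FGFR3, a growth factor receptor, 7.101-fold higher (1.06 and 7.51). RAB26, a small GTPase of vesicle traffic, was 10.5-fold higher (1.68 and 17.6), and TIMP3, a metalloproteinase inhibitor, 7.33-fold higher (1.05 and 7.67). In the Notch list NOTCH3 was the only one of 16 expressed members past the limit, and the median log2 ratio was −0.08. MIR621 and SCARNA15, at 42.9 and 29.9 FPKM in ERG+mAKT cells, complete the 15 largest ratios but are small RNA genes.

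Enzymes of carbonyl reduction and antioxidant defence were a further list with many higher genes. Of 23 expressed members of this list, 11 were at least 2-fold higher and 0 lower, with a median log2 ratio of 0.96. ALDH3A1, an aldehyde dehydrogenase, was at 3.36 FPKM in vector, 4.48 in mAKT, 0.864 in ERG and 15.3 in ERG+mAKT cells, a 17.7-fold ratio. The aldo-keto reductase AKR1C2 was at 3.13, 3.33, 0.772 and 7.68, and AKR1C1 at 15.4, 13.9, 3.54 and 18.4. For these 3 genes the ERG line was the lowest of the 4, and the vector and mAKT lines lay within 1.5-fold of each other. AKR1C1, AKR1C2 and AKR1C3 are near-identical in sequence, and the split of reads between them is uncertain. GPX2 and GPX3, which reduce peroxides, were 3.30-fold and 3.42-fold higher. GCLC, the catalytic subunit for glutathione synthesis, was also past the limit (10.98 and 24.1), and SLC7A11, the cystine importer, 2.67-fold higher (2.11 and 5.63). NQO1 (56.5 and 72.1) and the regulator NFE2L2 (37.7 and 52.0) stayed within 2-fold.

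**Figure D2:**
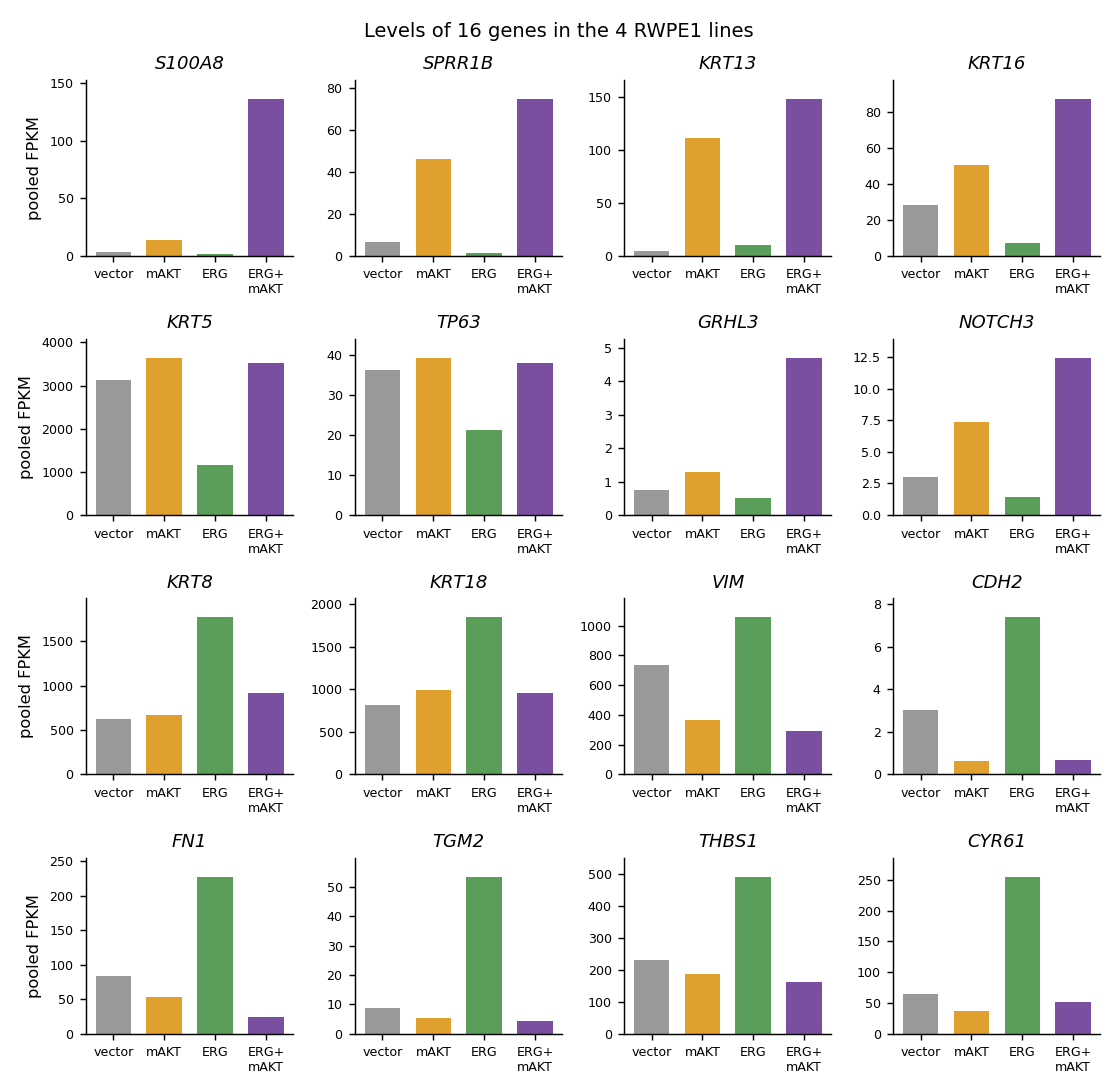
Pooled FPKM of 16 genes in the vector, mAKT, ERG and ERG+mAKT lines, one bar per line, each panel with its own linear axis from 0. Differentiation genes in the top row are highest with ERG+mAKT, KRT5 and TP63 are lowest with ERG, and the genes of the bottom row are highest with ERG. Each bar is one pooled value and has no error.

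Basal epithelial genes split into 2 sets. KRT5, the basal keratin, was at 3126 FPKM in vector, 3642 in mAKT, 1169.8 in ERG and 3519 in ERG+mAKT cells, a 3.01-fold ratio. TP63, the basal transcription factor, was at 36.3, 39.2, 21.3 and 38.0, a 1.78-fold ratio short of the limit. Both were lowest in ERG cells and near the vector level in ERG+mAKT cells. KRT14 was at 2936, 2527, 699.5 and 1185, so that its level in ERG+mAKT cells stayed under that of the 2 lines without ERG. KRT15 (80.3 and 279.7 in ERG and ERG+mAKT cells), TRIM29 (56.8 and 159) and DST (13.3 and 33.3) were the other higher genes. Laminin genes of the basement membrane were lower instead, with LAMA3 at 75.9 and 35.2 and LAMB3 at 222 and 99.1. In all, 4 of 15 expressed members were higher, 3 lower, and the median log2 ratio was −0.08.

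Simple keratins, which mark luminal prostate cells, lay below 0 on the log2 scale, with 1 of 4 expressed members past the limit. KRT8 was at 622 FPKM in vector, 671 in mAKT, 1769 in ERG and 921 in ERG+mAKT cells, and KRT18 at 817, 987, 1843 and 958. Each was 1.92-fold lower in ERG+mAKT than in ERG cells, short of the limit, and both share one locus in the deposited table. KRT7, the member past the limit, was at 4356 and 2124, 2.05-fold lower, and KRT19 was at 956 and 654. The median log2 ratio was −0.94. The list of prostate luminal identity genes had 17 of 29 members under the FPKM limit in both lines. Of its 12 expressed members 3 were higher and 0 lower (median log2 ratio 0.32), namely STEAP4 (0.110 and 1.119), GATA2 (1.48 and 3.68) and CD24. FOXA1, a pioneer factor of luminal cells, was at 4.66 and 3.19.

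Regulators of epithelial and mesenchymal state moved on both sides, with 4 of 16 expressed members higher and 4 lower. The grainyhead factors GRHL3 (0.511 and 4.70 FPKM in ERG and ERG+mAKT cells) and GRHL1 (1.06 and 5.42), which drive epidermal genes, were 9.20-fold and 5.12-fold higher. OVOL1, a factor that represses mesenchymal genes, was 4.68-fold higher (0.411 and 1.92). The mesenchymal intermediate filament VIM was at 737 in vector, 366 in mAKT, 1056 in ERG and 288 in ERG+mAKT cells, 3.66-fold lower. N-cadherin (CDH2) was at 3.04, 0.610, 7.38 and 0.666, 11.1-fold lower, and the receptor tyrosine kinase AXL was at 34.5, 29.3, 82.4 and 17.8. VIM and CDH2 were lower in both lines with mAKT than in both lines without it. E-cadherin (CDH1) stayed at 41.2 and 44.9. SNAI1 was 2.34-fold higher at a low level (0.756 and 1.77), SNAI2 was at 55.9 and 35.0, and ZEB1 was under the FPKM limit at 0.361 and 0.142.

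Matrix glycoproteins of mesenchymal cells were the list with the lowest median log2 ratio, −1.10 over 18 expressed members, with 0 higher and 10 lower. Their median in mAKT over vector cells was −0.39, with 0 higher and 3 lower. With a pseudocount of 1 the matrix list was at −0.91 in ERG+mAKT over ERG cells and simple keratins at −0.94. The lowest rank thus depends on the setting. Fibronectin (FN1), an adhesive matrix protein, was at 83.7 FPKM in vector, 53.4 in mAKT, 228 in ERG and 23.8 in ERG+mAKT cells, a 9.55-fold difference. TGM2, a crosslinking transglutaminase of the matrix and cytosol, was at 8.73, 5.36, 53.5 and 4.18, a 12.8-fold difference. Both were highest in ERG cells and lowest in ERG+mAKT cells. SPARC was at 67.5 and 15.4 in ERG and ERG+mAKT cells, THBS1 at 491 and 163, and VCAN at 2.01 and 0.273. BGN had the largest ratio upwards in the list, at 4.69 and 7.57. Collagens had a median log2 ratio of −0.71, with 1 of 13 expressed members higher and 3 lower. COL8A1 was 5.09-fold lower (23.9 and 4.70), while COL7A1, the anchoring fibril collagen of basal cells, was 2.29-fold higher (30.6 and 69.9).

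TGM2 had 7 ERG peaks within 20 kb of its span in ERG+mAKT cells, of which 1 passed a q-value of 0.01. That peak was chosen for display after its value was seen. It lies upstream of the gene, which is on the minus strand, with its centre 1637 bp from the annotated start, in no annotated exon. Its fold enrichment was 5.66 and its −log10 p-value 8.02. The plus strand of hg19 is printed with each core in capitals.
TGM2 upstream peak, chr20:36796538-36796696: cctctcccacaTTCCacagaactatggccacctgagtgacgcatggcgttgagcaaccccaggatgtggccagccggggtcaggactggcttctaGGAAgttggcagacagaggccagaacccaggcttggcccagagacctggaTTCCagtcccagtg
It holds 3 cores, 1 on the plus and 2 on the minus strand, and 81.9% of ERG peak windows of this length and 74.7% of windows 5 kb away held at least 1.

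Secreted and membrane genes tied to TGF-beta and YAP were lower together in part. PMEPA1, a TGF-beta target that limits the pathway, was at 76.3 FPKM in vector, 37.6 in mAKT, 79.3 in ERG and 33.1 in ERG+mAKT cells. LTBP2 (16.7 and 6.66 in ERG and ERG+mAKT cells) and INHBA (19.8 and 9.499) were also past the limit. The TGF-beta and activin list had 0 higher and 6 lower genes of 26 expressed, with a median log2 ratio of −0.47 (−0.09 after scaling both lines to one total). The protease list of plasminogen activators, metalloproteinases and inhibitors had 2 higher and 6 lower genes of 12 and a median of −0.79, with MMP2 at 1.39 and 0.481. TIMP3 and MMP28 were its higher genes. Of 21 YAP/TEAD factors and targets, 6 were lower and 0 higher. These were the targets CYR61 (255 and 51.5), CTGF (24.1 and 5.54), ANKRD1 (3.10 and 0.320), F3 (567 and 196) and ARHGAP29, with AXL, while YAP1 itself was at 33.3 and 36.5. The median log2 ratio of that list was −0.24, and it was 0.13 after scaling both lines to one total. Integrins and laminins had 1 higher (ITGB8) and 3 lower genes of 17, LAMA3 and LAMB3 among the latter, and a median of −0.35 (0.02 after that scaling).

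Other large ratios downwards lay outside these lists. PLCB4, a phospholipase C, was at 4.15 FPKM in vector, 2.30 in mAKT, 22.8 in ERG and 1.93 in ERG+mAKT cells, 11.8-fold lower. The hair keratin-associated gene KRTAP2-3 was at 39.1 and 3.36 in ERG and ERG+mAKT cells, EPDR1 at 7.32 and 0.719, and the retinol-binding protein RBP7 at 10.1 and 1.18. ESM1, a secreted proteoglycan best known from endothelium, was at 0.1002 in vector, 0.0399 in mAKT, 15.9 in ERG and 2.501 in ERG+mAKT cells. For PLCB4, KRTAP2-3, EPDR1, RBP7 and ESM1 the ERG line was the highest of the 4. HYPK (7.46 and 0.749) overlaps a neighbouring gene and is uncertain. The remaining genes among the 15 largest ratios downwards were MIR210, MIR6807, SNORD4B, RNVU1-20, SNORD75 and MIR3687-2, all small RNA genes.

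**Figure D3:**
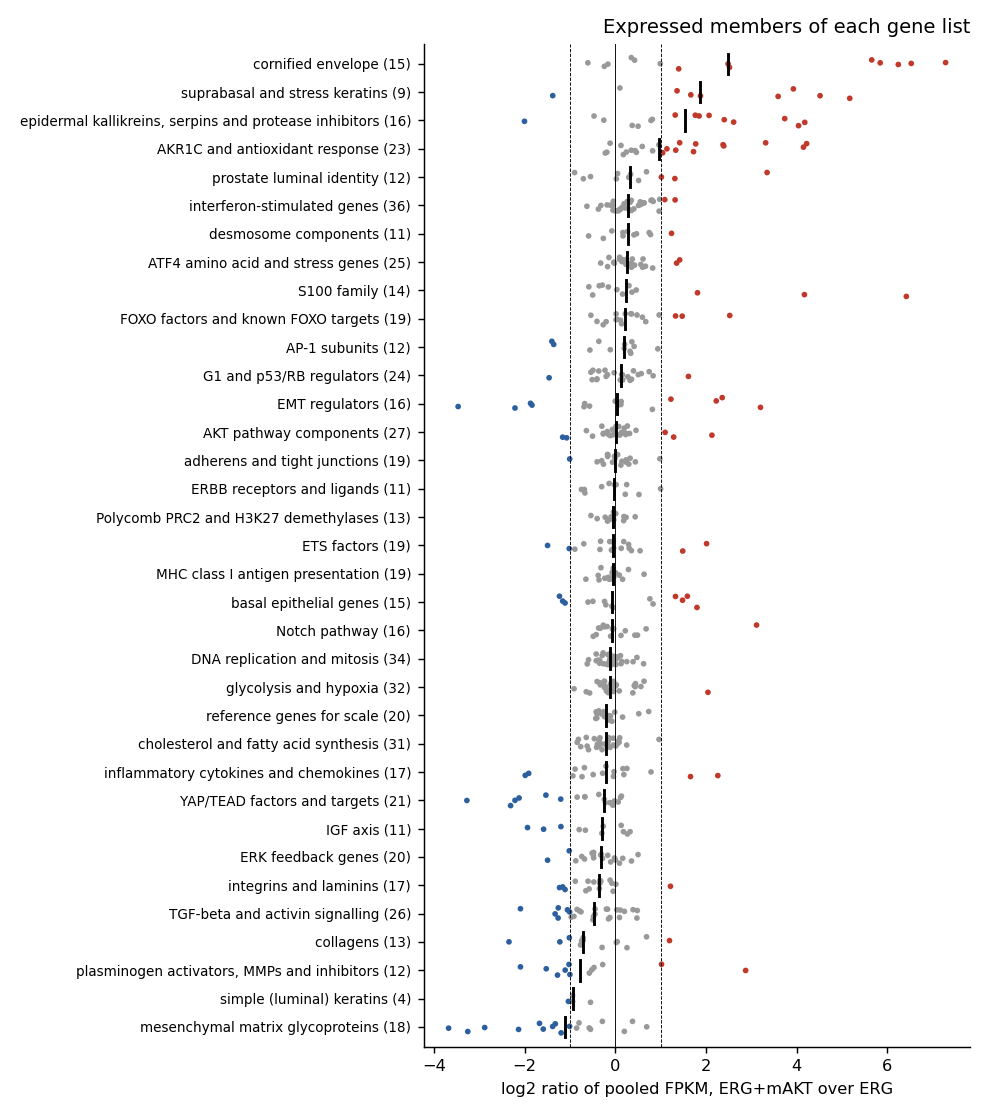
Log2 ratio of pooled FPKM, ERG+mAKT over ERG, of the expressed members of 35 gene lists with at least 4 of them, one point per gene and a black bar at the median. The number of expressed members follows each name, dashed lines mark 2-fold, and genes at 0 in one line are not drawn. Cornified envelope genes lie furthest to the right and mesenchymal matrix glycoproteins furthest to the left.

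Genes of the AKT pathway itself were mostly within 2-fold, with 3 of 27 expressed members higher, 2 lower and a median log2 ratio of 0.02. Besides AKT1, the PI3K regulatory subunits PIK3R1 (4.67 and 11.4 FPKM) and PIK3R3 (2.202 and 4.71) were higher. The lipid phosphatase INPP4B was lower, at 16.8 and 7.99, while AKT2 (30.1 and 26.6) was within the limit. Active AKT keeps FOXO factors out of the nucleus, so their targets were listed too. None of 19 expressed FOXO factors and targets was at least 2-fold lower, and 3 were higher. These were the death ligand TNFSF10 (1.21 and 6.96), the BH3-only gene BCL2L11 (2.08 and 5.78) and BCL6 (1.68 and 4.21), and the list median was 0.22.

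Genes induced by ERK signalling had 0 higher and 2 lower members of 20 expressed, with a median log2 ratio of −0.32 (0.06 after scaling both lines to one total). The lower genes were the ETS factors ETV4 (24.3 FPKM in ERG cells, 2.02-fold lower with mAKT) and ETV5 (12.5 and 4.42), and the ERK phosphatase DUSP6 was at 59.6 and 32.5. Of 12 AP-1 subunits 2 were lower and 0 higher, with a median of 0.20. FOSL1, an ERK-responsive subunit, was at 200.3 and 78.1, BATF3 at 1.14 and 0.430, and FOSL2 at 17.95 and 34.3. Of 19 expressed ETS factors 2 were higher and 2 lower, with a median of −0.05. ELF3, an epithelial ETS factor, was at 2.26 in vector, 5.57 in mAKT, 5.81 in ERG and 23.4 in ERG+mAKT cells, and ETV7 was the other higher gene. ERBB receptors and ligands had no member past the limit among 11 and a median of −0.02, with EGFR at 32.4 and 46.4. The IGF list had 0 higher and 3 lower genes of 11 and a median of −0.30. IGFBP3, an IGF-binding protein, was at 4.44 in vector, 3.31 in mAKT, 41.1 in ERG and 13.7 in ERG+mAKT cells, with IGFBP6 and IGF2 also lower.

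Lists for growth and metabolism had medians between −0.21 and 0.27 on the log2 scale, against −0.05 over all expressed genes. None of 34 DNA replication and mitosis genes passed the limit (median log2 ratio −0.12), with MKI67 at 24.9 and 23.9 FPKM and PCNA at 129 and 154. Of 24 G1 and p53/RB regulators 1 was higher and 1 lower (median 0.12), namely the CDK inhibitor CDKN1C (0.577 and 1.77) and cyclin D2 (CCND2). CCND2 was at 26.3 in vector, 32.0 in mAKT, 99.3 in ERG and 36.1 in ERG+mAKT cells. None of 31 cholesterol and fatty acid genes passed the limit (median −0.21), and their regulator SREBF1 was at 43.4 and 84.7, just inside it. Of 32 glycolysis and hypoxia genes 1 was higher (median −0.12), the oxygen sensor EGLN3 at 0.390 and 1.61. Of 25 ATF4 amino acid and stress genes 2 were higher (median 0.27), CHAC1 and SLC7A11. The medians of the replication, cholesterol and glycolysis lists were below 0 in the deposited values and above 0 after scaling both lines to one total, at 0.26, 0.17 and 0.26. None of 13 Polycomb PRC2 subunits and H3K27 demethylases passed the limit (median −0.04), with EZH2 at 10.42 and 11.9.

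Members past the limit in the adhesion and immune lists are given beside 3.16% higher and 3.83% lower over all expressed genes. Of 11 desmosome genes 1 was higher (median log2 ratio 0.27), PERP at 73.4 and 173 FPKM. Of 19 adherens and tight junction genes 1 was lower (median −0.01), PARD6B at 3.10 and 1.54. Interferon-stimulated genes had 2 higher members of 36, RSAD2 and USP18, and a median of 0.28. None of 19 MHC class I presentation genes passed the limit (median −0.05). Cytokines and chemokines had 2 higher and 2 lower genes of 17 (median −0.21), the largest share among these lists. The inflammatory cytokine IL1B was at 46.6 in vector, 42.0 in mAKT, 168 in ERG and 44.6 in ERG+mAKT cells, and its antagonist IL1RN was at 4.11, 6.02, 2.61 and 12.5. The pair thus lay in opposite directions, each in ERG+mAKT cells on the other side of its level in ERG cells. CSF2 was at 1.21 and 0.304. IL24, a cytokine of the IL-10 family, was at 0.2195, 0.0996, 2.21 and 6.97, and was above 1 FPKM only in the 2 lines with ERG.

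IL24 is one of 26 called genes with an ERG peak within 1 kb of the start in ERG+mAKT cells (9 higher and 17 lower, or 2.53% and 3.99% of those with a start, against 1.83% of all expressed genes with a start). Its peak also passed a q-value of 0.01. It was chosen for display after its value was seen. The peak is centred 470 bp upstream of the start, with a fold enrichment of 5.74 and a −log10 p-value of 8.14.
IL24 upstream peak, chr1:207070264-207070373: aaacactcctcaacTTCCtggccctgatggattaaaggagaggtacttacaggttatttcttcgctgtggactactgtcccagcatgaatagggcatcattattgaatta
The plus strand, on which the gene lies, is printed, and the single core, read as TTCC, is in capitals. At least 1 core was present in 70.2% of ERG peak windows of this length and in 63.0% of windows 5 kb away.

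The effect of mAKT in the absence of ERG was measured in 2 other lines, so the pair of ratios shares no library. In mAKT against vector cells, 196 of 12265 expressed genes (1.6%) were at least 2-fold higher and 165 (1.35%) at least 2-fold lower. Across 12458 genes above 0 in all 4 lines and at 1 FPKM or more in any, the log2 ratios had a standard deviation of 0.36 without ERG and 0.59 with it. Their correlation across genes was 0.44 (Pearson) and 0.17 (Spearman), and genes are not independent replicates. AKT1 itself was at 156 FPKM in mAKT and 281 in ERG+mAKT cells, a log2 ratio of 1.41 without ERG and 2.13 with it. The part of AKT1 level in the differences between the 2 ratios was not tested. Of the 393 genes higher in ERG+mAKT than ERG cells, 101 were also at least 2-fold higher in mAKT than vector cells and 21 were at least 2-fold lower. Of the 477 lower genes, 61 were also lower and 18 were higher. Without histone and small RNA genes, 77 of 299 higher genes were also higher in mAKT than vector cells and 4 were lower, and 41 of 333 lower genes were also lower and 2 were higher. These counts set no FPKM floor in the vector and mAKT lines. Read the other way, with a floor of 1 FPKM in vector or mAKT cells, 81 of the 196 higher genes and 52 of the 165 lower genes of the mAKT line were past the limit in the same direction with ERG.

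The difference of the 2 log2 ratios was at least 1 upwards for 296 genes (2.38%) and downwards for 421 (3.38%), which could not be tested. S100A8 had a log2 ratio of 1.94 without ERG and 6.42 with it. S100A9 went from 0.65 to 4.17, ALDH3A1 from 0.41 to 4.15 and AKR1C2 from 0.09 to 3.32. These were the protein-coding genes with the largest differences upwards among genes at 5 FPKM or more in any of the 4 lines and at 0.5 or more in all of them. KRT13, by contrast, had 4.76 without ERG and 3.93 with it, and RAB26 had 3.19 and 3.39. Downwards, TGM2 had −0.70 without ERG and −3.68 with it, PLCB4 −0.85 and −3.56, and the decoy receptor TNFRSF6B 0.24 and −2.52. H3F3A (2.36 and −0.85) has near-identical pseudogenes and is uncertain. The other genes at these extremes were the small RNA genes MIR621, SNORD116-23, SNORA72, MIR4449, SNORD4B, MIR6807, SNORD75 and MIR210. For TGM2 and PLCB4 the difference goes with their high level in ERG cells, as given above.

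**Figure D4:**
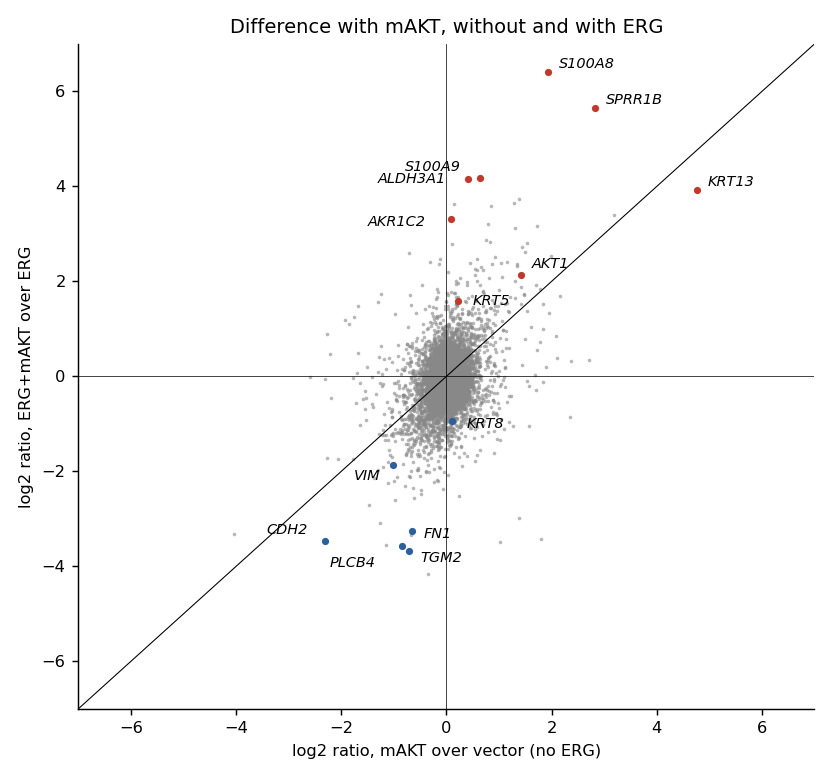
Log2 ratio of pooled FPKM for mAKT over vector (x axis) and ERG+mAKT over ERG (y axis) for 12094 expressed genes at 0.5 FPKM or more in all 4 lines, with equality as a diagonal line. S100A8, S100A9, ALDH3A1 and AKR1C2 lie well above the diagonal, TGM2, PLCB4 and FN1 below it, and KRT13 near it.

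ERG binding, open chromatin and H3K27me3 were measured apart from the RNA. An ERG peak of ERG+mAKT cells lay within 20 kb of 31.8% of the higher genes (95% Wilson interval 27.4 to 36.6%), 34.8% of the lower genes (30.7 to 39.2%) and 31.5% of the genes within 2-fold. These intervals of both groups include the share of genes within 2-fold, and all intervals cover counting error only, from 1 ChIP library. The median gene span was 14.4 kb for higher, 18.3 kb for lower and 30.2 kb for other genes, and longer genes have more room for a peak. With the 450 of 9113 peaks at a q-value of 0.01, the shares were 2.29%, 5.45% and 2.12%. Of the 26 lower genes in that count, 8 are histone genes that share 1 peak, and without histone and small RNA genes the lower share was 5.11% (3.21 to 8.02%). The removal of these classes was chosen after the data were seen. With it, an ERG peak of any strength lay within 20 kb of 39.0% of lower genes (33.95 to 44.4%). That is above the 31.8% of genes within 2-fold, with median spans of 35.6 and 31.2 kb. The part of gene length in this was not tested. Among lower genes with such a peak were TGM2, MMP2, TGFBI and MT2A.

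Open chromatin at the gene start was less often listed for genes past the limit. An ATAC-seq peak lay within 1 kb of the start in ERG cells for 65.7% of the higher genes (60.7 to 70.5%), 67.8% of the lower genes (63.3 to 72.1%) and 87.6% of genes within 2-fold. The shares in ERG+mAKT cells were 52.5%, 61.7% and 84.2%. The ERG list holds 63194 peaks and the ERG+mAKT list 41922, from 1 library each. With the 33000 peaks of lowest p-value from each list, the higher genes had 44.4% in ERG and 44.1% in ERG+mAKT cells, the lower genes 43.7% and 49.5%, and genes within 2-fold 74.3% and 77.7%. At equal list length the starts of higher genes were thus listed as open at nearly the same share in both lines. In the full lists 51.4% of higher genes had a peak at the start in both lines. A peak is only present or absent here, so a change in signal at such starts is not seen. The part of open chromatin in the RNA ratios was not tested. Small RNA genes and genes of low FPKM are more frequent among genes past the limit. Without histone and small RNA genes the shares in ERG cells were 74.5%, 70.0% and 88.6%.

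Regions of H3K27me3, the mark of Polycomb repression, were taken from RWPE1-ERG cells, which carry no mAKT. The list holds 228233 regions from 1 library. How often a window away from gene starts holds such a region was not measured, so the shares below compare gene groups only. Such a region lay within 1 kb of the start of 11.8% of the higher genes (8.85 to 15.6%), 11.7% of the lower genes (9.02 to 15.1%) and 3.51% of genes within 2-fold (3.18 to 3.87%). The intervals of both groups lie above that of genes within 2-fold, and the median FPKM in ERG cells was 0.979 for higher, 9.93 for lower and 11.4 for other genes. The part of expression level in this was not tested. An ERK2 peak of RWPE1-ERG cells lay at the start of 5.06% of higher (3.22 to 7.85%), 12.9% of lower and 8.91% of other genes. Without histone and small RNA genes the lower share was 5.99% (3.87 to 9.17%), and that of genes within 2-fold 8.77%.

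**Figure D5:**
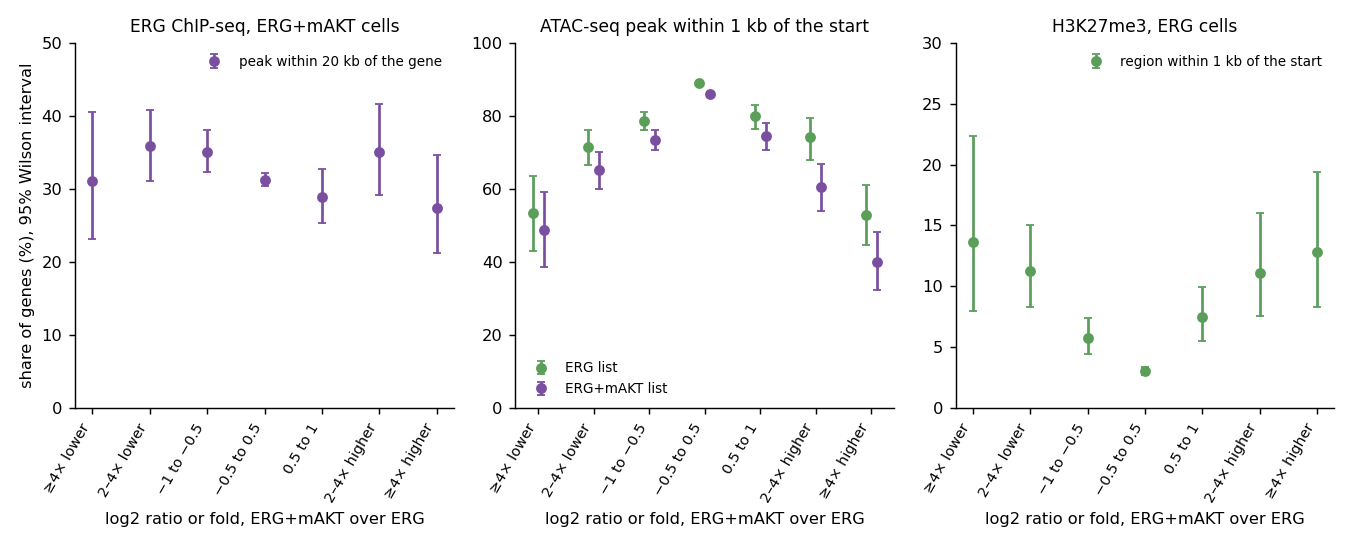
Share of expressed genes with an ERG peak within 20 kb of the gene in ERG+mAKT cells (left), with an ATAC-seq peak within 1 kb of the start in ERG and ERG+mAKT cells (middle) and with an H3K27me3 region within 1 kb of the start in ERG cells (right), by ratio of ERG+mAKT over ERG. Points are shares in percent and bars 95% Wilson intervals. ERG peak shares lie between 27.4% and 35.8% in every group, while the ATAC-seq share is highest and the H3K27me3 share lowest for genes between −0.5 and 0.5 on the log2 scale.

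Chromosome 18 had the lowest median ratio of the chromosomes compared. Over 8292 protein-coding genes at 5 FPKM or more, the median log2 ratio was −0.44 for 114 genes on chromosome 18, and it lay between −0.17 and 0.19 on each of the 22 other chromosomes. From 30 to 60 Mb, a stretch chosen after its values were seen, 38 of 40 genes had a ratio below 0 and 8 were at least 2-fold lower, with a median of −0.81. On the other chromosomes together 59.0% of genes were below 0. By chromosome this share ran from 21.9% on chromosome 22 to 73.4% on chromosome 19. The stretch includes SMAD4 (7.08 and 4.09 FPKM in ERG and ERG+mAKT cells) and SMAD2 (6.66 and 3.39), the TGF-beta signal transducers, and RPL17 (2008 and 920.3). In mAKT over vector cells the same 40 genes had a median of −0.45. ATAC-seq peaks shared by the ERG and ERG+mAKT lists had a median pileup ratio of 0.06 (log2) in the stretch, relative to all shared peaks. The ratios of these genes are given with this regional value, and its cause was not tested. Leaving out chromosome 18 gave 390 higher and 454 lower genes. CDH2, which was lower, and SERPINB13, which was higher, also lie on chromosome 18, outside the stretch from 30 to 60 Mb. SMAD2 and SMAD4 are members of the TGF-beta and activin list described above.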

How the data were processed

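RNA-seq used polyA RNA from 4 RWPE1 lines with 3 libraries each. Reads were aligned by the authors with TopHat2 and summarised with Cuffdiff on hg19. The authors deposited FPKM values pooled over the 3 libraries of a line, for 6 pairs of lines; whether a library scaling was applied is not given in the sources used here. The columns of fold change, test statistic, p-value and q-value of the authors' comparisons were not used. Peak lists were deposited by the authors from MACS 2.1.2 and 2.2.7.1 with a fold enrichment ratio, a pileup signal and −log10 p-values and q-values per peak. The header of the ERG list records 10306483 ChIP and 14670664 input reads. The depth of the RNA-seq libraries is not known from pooled values, and 0 columns of single samples were present.

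Expressed genes had an FPKM of at least 1 in RWPE1-ERG or RWPE1-ERG+mAKT. Log2 ratios used no pseudocount. A gene at 0 in one line and at 1 or more in the other was counted as past the 2-fold limit, without a ratio, which held for 66 genes at 0 in ERG and 37 at 0 in ERG+mAKT cells. Pooled values allow no test. The members, the 39 gene lists and the rules were chosen with earlier results of these data known. Genes were named as the 15 largest ratios in each direction (5 FPKM or more in the higher line, 0.5 or more in the lower), S100A8, SPRR1B, TGM2 and FN1, the transgenes and genes of the study, list members, largest ratio first or where a role defines the list, and the 8 genes in each direction whose mAKT effect differed most with ERG (5 FPKM or more in any line, 0.5 or more in all). Genes named beyond these were chosen after their values were seen.

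Positions came from GENCODE release 44 on GRCh37, the build of the files. By symbol 11241 genes were placed, by older symbol 711 and by the table's own locus 492. A gene start was used for 11952 genes. Peaks had to overlap the window by at least 1 bp, and shares have 95% Wilson intervals. Sequences were read from the GRCh37 genome. Alternatives changed the fold limit, FPKM floor, pseudocount, scaling, windows and peak limits. The code was tested on simulated data. Tables were handled with pandas 2.3.3 and numpy 2.4.6 under Python 3.11.15, intervals with scipy 1.17.1, sequences with pysam 0.24.0 and plots with matplotlib 3.10.9. A few genes of the lists are counted but not reported here by name.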

Additional observations from a re-analysis of the deposited data

How the results depend on the processing

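The counts of higher and lower genes were 393 and 477. They became 768 and 1190 at a 1.5-fold limit, 168 and 106 at a 4-fold limit, 920 and 924 with an FPKM floor of 0.1, 191 and 300 with a floor of 5, and 1248 and 1311 for all genes above 0 in both lines. They were 256 and 313 with a pseudocount of 1, and 705 and 227 with both lines scaled to one total. With the median log2 ratio set to 0 they were 423 and 430, and with one 75th percentile 450 and 387. Protein-coding genes without histones, an alternative chosen after seeing the data, gave 287 lower genes. The settings without histone and small RNA genes and without chromosome 18 were also chosen after seeing the data. The Pearson correlation of the mAKT effects with and without ERG was 0.32 with a pseudocount of 1. The counts of genes whose mAKT effect differed were 114 upwards and 252 downwards with a floor of 5, and 126 and 240 with a pseudocount of 1. Higher and lower genes had an ERG peak within 100 kb in 59.0% and 65.4%, against 62.0% of genes within 2-fold, and within 20 kb at a q-value of 0.01 in 2.29% and 5.45%. In a 5 kb window, the ATAC-seq shares of higher and lower genes were 80.6% and 82.2% in the ERG list and 68.0% and 77.7% in the ERG+mAKT list. With 33000 peaks they were 44.4% and 43.7%, and 44.1% and 49.5%. The cause of these shifts was not tested beyond what each setting itself changes.

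Of 10 lists with a median log2 ratio past 0.5 in either direction, all 69 values under the alternatives kept their sign. These 10 include the neuroendocrine list with 1 expressed member and the fibroblast and smooth muscle list with 3. Over all lists, 242 of 272 medians stayed inside an interval for the median taken from the ranked values of the members, and 30 fell outside it, most of them under the scaling to one total. No paired analysis was possible because the deposited values are pooled over the libraries of a line, and for the same reason no library could be left out. Neither the depth of the libraries nor their spread is known, so small ratios and genes of low FPKM cannot be told from noise.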

Other observations

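Metallothioneins, small cysteine-rich proteins that bind zinc and copper, included some of the most abundant transcripts of both lines. Over 6 expressed members the summed FPKM was 22743 in ERG cells and 7810 in ERG+mAKT cells. MT2A was at 13332 FPKM in vector, 15674 in mAKT, 19639 in ERG and 6088 in ERG+mAKT cells, 3.23-fold lower in the last pair. MT1G was also at least 2-fold lower, at 2.07 and 0.674, and MT1X (1832 and 985) and MT1E (1219.9 and 691) were within the limit. The family was chosen after its values were seen. In mAKT against vector cells 0 members were at least 2-fold lower. The median log2 ratio of the family was 0.27 in that comparison and −0.86 in ERG+mAKT against ERG cells.

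Clustered histone genes had a summed FPKM of 3556 in ERG and 1497 in ERG+mAKT cells and a median log2 ratio of −1.14, with 42 of 58 at least 2-fold lower. HIST1H1C, a linker histone, was at 88.6 FPKM in vector, 69.9 in mAKT, 248 in ERG and 68.6 in ERG+mAKT cells. On chromosome 6, from 27775257 to 27861669, 14 neighbouring histone genes were all past the limit. In mAKT over vector cells the median was −0.58, and 1 gene was at least 2-fold lower. Replication genes stayed within 2-fold, as given above. Histone genes are close copies of each other and are captured in polyA RNA only in part, and the part of polyA selection in these ratios was not tested.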
